A study of Equus caballus with 25 samples.

Results

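NFKB1, NFKB2 and RELB encode 3 subunits of NF kappa B, a family of transcription factors that drives inflammatory gene expression. Their transcripts were selected by identifier on an equine immune array (ENSECAT00000016267 for NFKB1, ENSECAT00000021368 for NFKB2 and ENSECAT00000022322 for RELB). They are 3 of the 7238 transcripts on the array, and all 3 were among the 4930 that passed the intensity filter. RNA was measured in cells of bronchoalveolar lavage (BAL) fluid, which samples the surface of the lower airways, with 1 array per horse. The 25 horses comprised 7 healthy controls (CTRL, labelled Control), 10 horses with mild equine asthma (MEA, labelled IAD for inflammatory airway disease) and 8 with severe equine asthma (SEA, labelled RAO for recurrent airway obstruction). All horses were privately owned animals sampled under sedation, and the paper reports no animal experimentation. Medication before sampling is not described. The CTRL horses were all standardbreds, whereas both affected groups were mostly saddle horses, and the SEA horses were older on average than the horses of the other groups. The MEA group was limited to animals with neutrophilic inflammation, so that breed, age and cell makeup cannot be told apart from diagnosis in some or all of the comparisons.

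In resting cells, NF kappa B dimers are held inactive by inhibitors of the I kappa B family. In the canonical pathway, ligands such as interleukin 1, tumor necrosis factor and bacterial products activate a kinase that removes these inhibitors and frees dimers that contain p50, the product of NFKB1. In the noncanonical pathway, p52, the product of NFKB2, is cut from a longer precursor and acts together with RELB, while several genes of the family and its inhibitors are themselves targets of NF kappa B. Macrophages, the main cells of normal BAL fluid, and neutrophils, which enter the airways in asthma, both use this pathway when they respond to inhaled dust and microbial products.

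The probes through which the 3 transcripts were read are shown because every level below is the brightness of these sequences alone. They are taken from the scanner files, in lower case, and the whole probe is given for NFKB1 and RELB. For NFKB2 the last 30 of 60 bases are shown, and the capitals mark AATAAA, the letters of the signal that precedes the end of many messenger RNAs.
NFKB1: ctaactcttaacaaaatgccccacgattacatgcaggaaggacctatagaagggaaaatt
NFKB2: cctcagctggggcaAATAAAagattctcat
RELB: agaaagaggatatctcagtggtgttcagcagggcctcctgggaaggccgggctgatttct
The letters AATAAA, searched on the printed strand, occurred in 5.3% of the 7238 probes. The share of G and C was 40% in the NFKB1 probe, 46.7% in the NFKB2 probe and 55% in the RELB probe, against a median of 45% over all probes. The probe of a second transcript, ENSECAT00000016309, has the same 60 bases as the NFKB1 probe and served as a repeat measurement, whereas no other probe shared 20 bases in a row with that of NFKB2 or RELB. The files give no genome position for these probes, and none is stated here.

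All 3 subunits were well above background on both of their spots in 25 of 25 arrays, and no spot was saturated. Duplicate spots lay a median of 0.15 log2 units apart for NFKB1, 0.24 for NFKB2 and 0.06 for RELB, against a spread between horses of a group of 0.59, 0.86 and 0.72 (SD after group means were removed). On single arrays they lay up to 1.60, 0.79 and 0.93 apart, which exceeded that SD for NFKB1 and RELB. The share of all spots well above background ranged from 58.2% to 90.8% over the arrays, and the number of arrays limits the precision. The array labelled MEA replicate 3 stood apart. Its mean over 7 neutrophil marker transcripts was 11.84, the highest of the 25 horses. Its neutrophil percentage, however, ranked only 4 of 10 in its group, counted from the lowest. A sample mix-up was not tested. Several results that rest on this horse are given with and without it. Levels are log2 intensities after normalization over the 25 arrays, and 1 unit is a 2-fold difference. A transcript was called when limma's Benjamini-Hochberg adjusted p was below 0.1 and the fold change was at least 1.5.

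NFKB1, which encodes the p50 subunit and its precursor p105, was higher in SEA than in CTRL horses. In CTRL it ranged from 7.78 in replicate 5 through a median of 8.52 to 8.95 in replicate 7. In SEA it ranged from 8.72 in replicate 4 through 9.42 to 9.84 in replicate 2. Of the 8 SEA horses, 6 lay above the highest CTRL horse and 8 above the CTRL mean, and the groups overlapped through the remaining SEA horses. The means were 8.45 ± 0.41 (SD, n = 7) in CTRL and 9.33 ± 0.41 (SD, n = 8) in SEA. The difference of 0.88 log2 units (SE 0.22, 95% interval 0.40 to 1.35) was a 1.83-fold rise, which limma called at an adjusted p of 0.0155.

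In MEA, NFKB1 covered a wider span, from 8.10 in replicate 4 through a median of 9.11 to 10.59 in replicate 6, with a mean of 9.30 ± 0.78 (SD, n = 10). The 2 highest NFKB1 levels of all 25 horses, 10.42 and 10.59, belonged to MEA replicates 2 and 6. The mean difference of MEA from CTRL was 0.85 (SE 0.31, 95% interval 0.20 to 1.5), nearly that of SEA from CTRL, but it missed the threshold with limma's adjusted p of 0.115. SEA and MEA differed by 0.03, with a 95% interval of -0.60 to 0.65 and limma's adjusted p of 0.968. The repeat probe of the same sequence read 8.78 ± 0.50 in CTRL (SD, n = 7), 9.36 ± 0.84 in MEA (n = 10) and 9.42 ± 0.53 in SEA (n = 8). Its deviations from the group means correlated with those of the first probe at r = 0.88 over the 25 horses, and the median difference between the 2 probes was 0.13. The largest difference, 1.22, was in SEA replicate 8, where the first probe read 8.90 and the repeat 10.12. By the repeat probe alone SEA exceeded CTRL by 0.64 (SE 0.26, limma's adjusted p 0.0843), and by the mean of the 4 spots by 0.76 (SE 0.23, limma's adjusted p 0.0256), so that both also passed the threshold. MEA exceeded CTRL by 0.58 by the repeat probe (SE 0.34, limma's adjusted p 0.309). By the mean of the 4 spots it did so by 0.72 (SE 0.32, limma's adjusted p 0.194), and neither passed.

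NFKB2, which encodes p100 and its processed form p52 of the noncanonical pathway, showed the largest mean difference of the 3 between SEA and CTRL. It ranged in CTRL from 10.55 in replicate 5 through a median of 12.06 to 13.27 in replicate 7. In SEA it ranged from 12.22 in replicate 4 through 13.25 to 14.47 in replicates 6 and 7. Of the 8 SEA horses, 3 exceeded the highest CTRL horse, and 4 of the 7 CTRL horses lay below the lowest SEA horse. The group means of 11.96 ± 0.94 (SD, n = 7) and 13.32 ± 0.84 (SD, n = 8) differed by 1.36 (SE 0.43, 95% interval 0.46 to 2.26). This 2.57-fold rise was called by limma at an adjusted p of 0.0295.

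In MEA, NFKB2 lay between 12.17 in replicate 4 and 13.59 in replicate 2 in 9 of the 10 horses, while replicate 3 reached 15.05, the highest NFKB2 level of the 25 horses. The MEA mean was 12.98 ± 0.82 (SD, n = 10), and all 10 horses lay above the CTRL mean. The difference from CTRL of 1.01 (SE 0.40, 95% interval 0.18 to 1.85) missed the threshold with limma's adjusted p of 0.141. Leaving out single horses, replicate 3 among them, gave differences from 0.78 to 1.23. SEA exceeded MEA by 0.35 with a 95% interval of -0.43 to 1.13 and limma's adjusted p of 0.607, and by 0.58 when MEA replicate 3 was left out, which was again not called.

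RELB, the partner of p52, was graded across the 3 groups, but only its difference between SEA and CTRL passed the test. In CTRL it ranged from 6.01 in replicate 5 through a median of 6.75 to 8.08 in replicate 7. In SEA it ranged from 7.36 in replicate 4 through 8.17 to 8.78 in replicate 8. In SEA, 5 of 8 horses lay above the highest CTRL horse and 8 of 8 above the CTRL mean. The means of 6.91 ± 0.72 (SD, n = 7) and 8.15 ± 0.48 (SD, n = 8) differed by 1.24 (SE 0.30, 95% interval 0.60 to 1.88). This 2.37-fold rise was called by limma at an adjusted p of 0.0135.

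MEA horses spanned from 6.50 in replicate 10 through 7.38 to 9.22 in replicate 3, with a mean RELB level of 7.53 ± 0.86 (SD, n = 10). They thus covered most of the range of both other groups. The difference of MEA from CTRL was 0.62 (SE 0.37, 95% interval -0.16 to 1.4, limma's adjusted p 0.33). SEA exceeded MEA by 0.62 as well, with a 95% interval of -0.06 to 1.31 and limma's adjusted p of 0.274. MEA replicate 3 decided this last call: without it the MEA group lay 0.81 below SEA, which limma called at an adjusted p of 0.0825, and only 0.43 above CTRL.

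**Figure D1:**
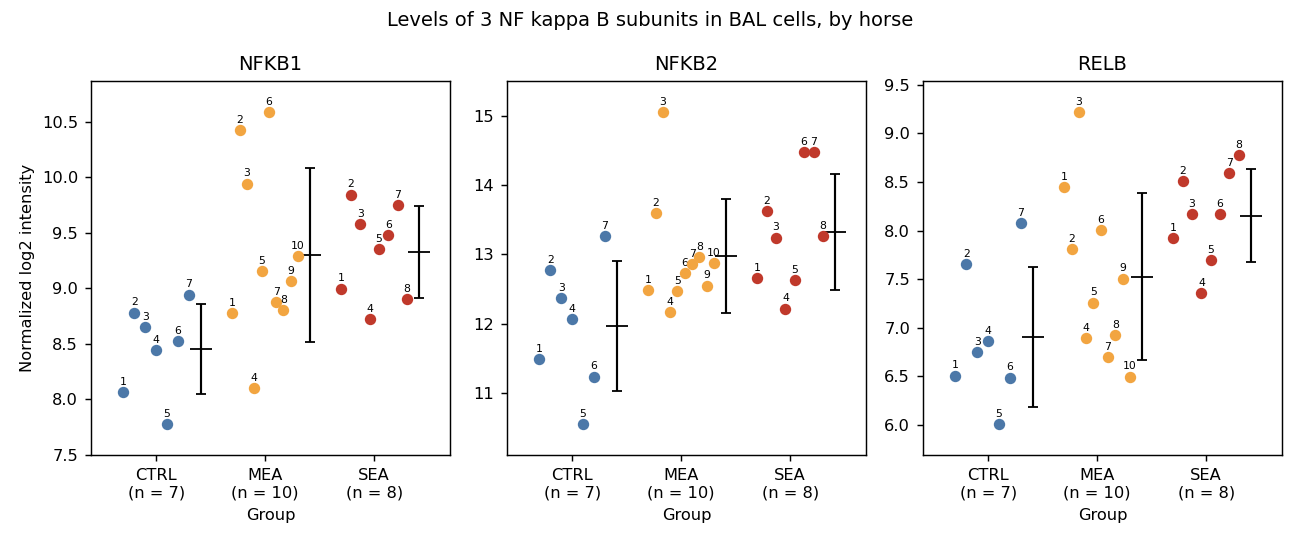
Normalized log2 intensity of NFKB1, NFKB2 and RELB on the y axes for each horse of the CTRL, MEA and SEA groups on the x axes; points carry the replicate number and the black bars give the group mean ± SD. The SEA means lie above the CTRL means in each panel, CTRL replicate 7 is the highest control in all 3, and MEA replicate 3 is the highest horse for NFKB2 and RELB.

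In order of the means, SEA stood above MEA and MEA above CTRL for all 3 subunits, although the order of SEA and MEA was not fixed for NFKB1, where the difference turned negative in 12 of 37 alternatives (-0.18 with slide and -0.23 with scan date as a block). Neither SEA and MEA nor MEA and CTRL differed past the adjusted threshold for any of the 3, whereas SEA and CTRL did for all 3. All 3 were called in SEA against CTRL, where 15.9% of the 4930 tested transcripts were called higher and 32.5% were called in either direction. The study had listed all 3 as changed and named them as upregulated in SEA. Of the transcripts with a symbol from those lists, 42% were called higher in SEA. The calls of the 3 subunits are therefore no independent evidence. None was called in MEA against CTRL, where 3.23% were called higher and 9.74% in either direction, although the 95% intervals of NFKB1 and NFKB2 lay above 0, with an unadjusted p of 0.0136 and 0.0204. For the repeat probe of the NFKB1 sequence, limma's unadjusted p was 0.0993. None was called in SEA against MEA, where 1.32% were called higher and 2.05% in either direction, and the lowest unadjusted p was 0.0702 for RELB. Both contrasts against CTRL use the same 7 control horses, so that their values are not independent. In no comparison did every horse of one group lie above every horse of the other for any of the 3 subunits, which 1.52% of transcripts did for SEA over CTRL, 0.101% for MEA over CTRL and 0.0609% for SEA over MEA.

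**Figure D2:**
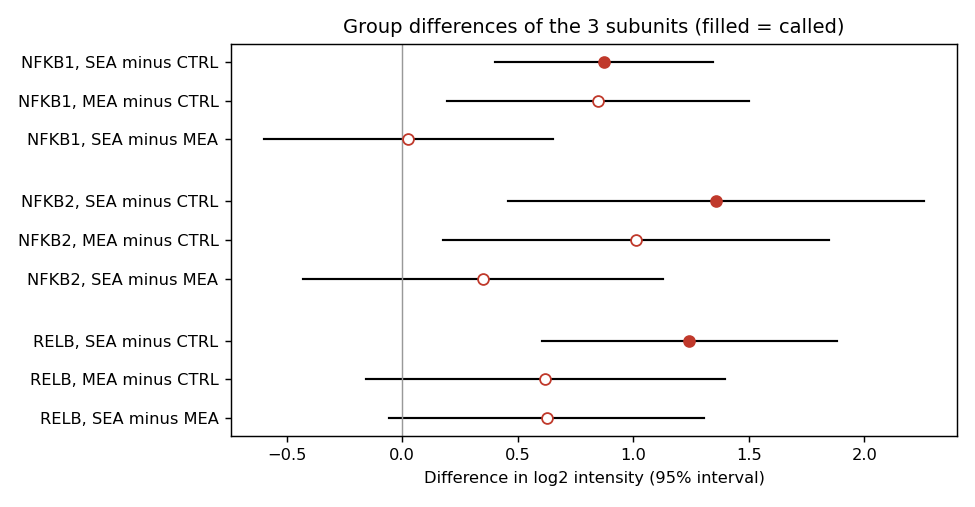
Difference between group means in log2 intensity on the x axis, with its 95% interval from limma, for each subunit and comparison on the y axis; filled points were called and open points were not. The 3 intervals of SEA against CTRL lie above 0, as do those of NFKB1 and NFKB2 in MEA against CTRL, although neither of these was called, and the intervals of SEA against MEA all span 0.

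Each of the 4 slides held horses of all 3 groups, so the difference between SEA and CTRL could also be read within a slide. For NFKB1 it was 0.58, 1.11, 1.11 and -0.04 on slides 1 to 4. For NFKB2 it was 0.53, 1.39, 2.39 and -0.00, and for RELB it was 0.84, 1.31, 1.81 and 0.70. The 2 differences near 0 came from slide 4, which held 1 SEA horse and a single control, CTRL replicate 7, the control with the highest level of each subunit. MEA against CTRL on the same slide, with 5 MEA horses, gave 0.25 for NFKB1, -0.00 for NFKB2 and -0.71 for RELB.

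The cell makeup of the fluid differed between the groups as well. In whole BAL cells, a higher level per cell and a larger share of the cells that carry a transcript cannot be told apart. The percentage of neutrophils counted by cytology did not overlap between any 2 of the groups, so that group and neutrophil share cannot be separated across groups. The marker transcripts carry symbols because the study listed them as changed in these horses, and of 1684 symbol-bearing transcripts 708 (42%) were called higher and 742 lower in SEA against CTRL. Of 7 neutrophil marker transcripts, 6 rose and 1 fell in SEA against CTRL. CSF3R, the receptor for granulocyte colony stimulating factor, rose by 2.53 (limma's adjusted p 0.0638), and LTF, which encodes lactoferrin of neutrophil granules, fell by 2.1 on the log2 scale (limma's adjusted p 0.0515). The mean over the 7 transcripts ranged from 7.54 to 9.81 in CTRL, from 8.45 to 11.84 in MEA and from 7.94 to 11.53 in SEA.

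Of 11 epithelial marker transcripts, 10 fell in SEA against CTRL and 1 was not called. The epithelial percentages counted by cytology overlapped between these groups, and their mean was not lower in SEA. The axonemal gene RSPH4A showed a difference of -3.13 and EPCAM, an adhesion molecule of epithelial cells, one of -2.55. The list mean was between 8.10 and 9.85 in CTRL and between 4.28 and 8.64 in SEA. Of 9 macrophage marker transcripts, 4 rose, among them MPEG1 with 1.59 and EMR1 with 1.56, and 5 were not called, a share near that of all symbol-bearing transcripts. The differences ran from -1.12 for MARCO, not called and named after its value was seen, to 1.59. By cytology the macrophage percentage was lower in SEA than in CTRL, with no overlap. Their mean covered 8.70 to 9.98 in CTRL and 9.75 to 10.67 in SEA. Of 9 lymphocyte marker transcripts, 4 rose, again near the share of all symbol-bearing transcripts, and 1 fell, and the list means overlapped (6.0 to 7.31 in CTRL and 5.37 to 8.04 in SEA). CTLA4, an inhibitory receptor of T cells, rose by 1.43, while the cytotoxic granule gene GZMB had called transcripts in both directions, with differences of -1.35 and, in a transcript named after its value was seen, 0.97. The eosinophil granule gene PRG3, the only tested marker of mast cells and eosinophils, rose by 1.77. No marker transcript was at background on every array of a group. The part of the neutrophil and macrophage shares in the subunit differences cannot be told apart from diagnosis. With the percentage of epithelial cells or of lymphocytes as a covariate, choices made after the data had been seen, all 3 subunits were still called in SEA against CTRL. The counted epithelial percentage did not follow the epithelial transcripts between these groups, so that it need not stand for the share of epithelial RNA. Nothing about cell makeup is drawn from these calls.

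The rest of the NF kappa B pathway was described through 75 further genes, of which 48 had a tested transcript that carried a symbol. Together they had 54 transcripts read by 51 different probe sequences. In SEA against CTRL, 47 of the 54 were called higher, 3 lower and 4 were not called, with a median difference of 1.36 log2 units. Over all 4930 transcripts the median was -0.01. Symbols were available only for transcripts that the study listed as changed in these same horses, and 42% of all symbol-bearing transcripts were called higher in SEA. These counts are therefore no independent evidence of direction, and they stand here as values.

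REL, which encodes the c-Rel subunit, was the other family member with a value, and it rose by 1.51 (SE 0.33, limma's adjusted p 0.00936). RELA was not analysed here. Among the inhibitors, 3 of 3 transcripts rose. NFKBID, a nuclear member of the I kappa B family, rose by 2.05 (limma's adjusted p 0.00774), NFKBIA, which encodes I kappa B alpha, by 1.55 (limma's adjusted p 0.0169), and NFKBIE, for I kappa B epsilon, by 0.76 (limma's adjusted p 0.0591). Among the kinases, all 6 transcripts of 5 genes rose. MAP3K8, a kinase that acts on p105, rose by 1.72. TAB2, an adaptor of the kinase TAK1, rose by 0.88, and RIPK2, which relays signals from NOD2, by 0.71.

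Upstream of these, 12 of 13 receptor and adaptor transcripts rose and 1 was not called. TRAF1, an adaptor of the tumor necrosis factor receptor family, rose by 1.62 (limma's adjusted p 0.0038), TICAM1, an adaptor of Toll-like receptors, by 1.10 (0.00439), and NOD2, a cytosolic sensor of bacterial cell wall, by 2.16 (0.00741). The 7 transcripts of negative regulators divided into 5 that rose and 2 that fell. The deubiquitinase gene CYLD rose by 1.25 and TANK, which binds TRAF proteins, by 1.54, whereas the 2 that fell both belonged to TAX1BP1, a partner of the A20 deubiquitinase, the first of them by 0.86 on the log2 scale (limma's adjusted p 0.0151). Of 24 transcripts of known target genes, 20 rose, 1 fell and 3 were not called. The growth factor gene CSF1 rose by 2.40 (limma's adjusted p 0.00189), the survival gene BCL2L1 by 1.47 (0.00329) and the chemokine gene CXCL2 by 2.06 (0.00380). The CTRL means of NOD2 (4.34) and CSF1 (3.93) lay below the intensity limit of 4.5, so that the sizes of their rises are uncertain. The transcript that fell was CXCL10, an interferon-induced chemokine gene named after its value was seen, with a difference of -1.03.

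In MEA against CTRL, 6 of the 54 transcripts were called higher and none lower, with a median of 0.53, where 7.07% of all symbol-bearing transcripts were called higher. They belonged to NFKBID (1.17), MAP3K8 (1.3), CXCL2 (1.09) and, named after their values were seen, PTGS2 (1.34), CD80 (1.64) and IL1RAP (0.92). The count moved with the processing, from 0 with epithelial or lymphocyte percentage as a covariate and 2 with normexp correction or slide as a block to 13 with array weights. Calls over all tested transcripts were 0, 0, 156, 171 and 929 in the same order, against 480 in the main fit. Lymphocyte percentages did not overlap between MEA and CTRL, so that covariate cannot be separated from diagnosis and nothing is drawn from its 0. The count also moved with single horses and was 2 without CTRL replicate 6, 3 without CTRL replicate 1 or 4, and 10 without CTRL replicate 7 or MEA replicate 7. In SEA against MEA, 7 of the 54 were called higher, with a median of 0.87, where 3.62% of all symbol-bearing transcripts were called higher. TAB2 was one of them (1.0), and the others, named after their values were seen, were 2 transcripts of MAP3K14 (1.59 and 1.56), the kinase that starts NFKB2 processing, and the target genes CCL20 (2.0), VCAM1 (1.93), CCR7 (1.76) and IL1A (1.69). Both MAP3K14 transcripts had means below the intensity limit of 4.5 in MEA (3.38 and 3.29) and above it in SEA (4.97 and 4.86). They may have passed the filter only through SEA horses, so that little rests on these 2 calls. The SEA against MEA count was 0 under 75th percentile scaling, normexp correction, the rank sum test and slide as a block. It was 13 in 1 fit of all arrays and 40 with array weights. Calls over all tested transcripts were 0, 8, 25, 0, 265 and 816 in the same order, against 101 in the main fit. Among single horses, the pathway count was 37 without MEA replicate 3, 25 without SEA replicate 1 and 14 without MEA replicate 5. Calls over all tested transcripts were then 554, 351 and 327, so that they rose over the whole array as well. The pathway count was 2 or 3 without SEA replicate 4 or 8 or MEA replicate 2, 4 or 6. It was 0 without SEA replicate 2, 3, 5 or 7 or MEA replicate 7, 8, 9 or 10.

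Horses that were high for one subunit within their group tended to be high for the others. After removal of the group means, 7 horses were above their group mean for all 3 subunits, 10 were below it for all 3 and 8 were mixed. CTRL replicate 5 was the lowest and CTRL replicate 7 the highest control for each subunit, and SEA replicate 4 was the lowest SEA horse for each. NFKB2 and RELB had r = 0.72 (permutation p = 4e-05, adjusted over 3 pairs 0.00012) and rho = 0.65 (permutation p = 0.00048, adjusted 0.00072). NFKB1 and NFKB2 had r = 0.62 (permutation p = 9e-04, adjusted 0.00135) and rho = 0.69 (permutation p = 0.00028, adjusted 0.00072). NFKB1 and RELB gave r = 0.56 (permutation p = 0.0115, adjusted 0.0115) and rho = 0.63 (permutation p = 0.00185, adjusted 0.00185). The 3 relations held without the 2 horses farthest from the median of the x axis, at r = 0.53, 0.74 and 0.54 in the same order, so that the order of the pairs was not fixed. Without MEA replicate 3 they were 0.60, 0.60 and 0.52.

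**Figure D3:**
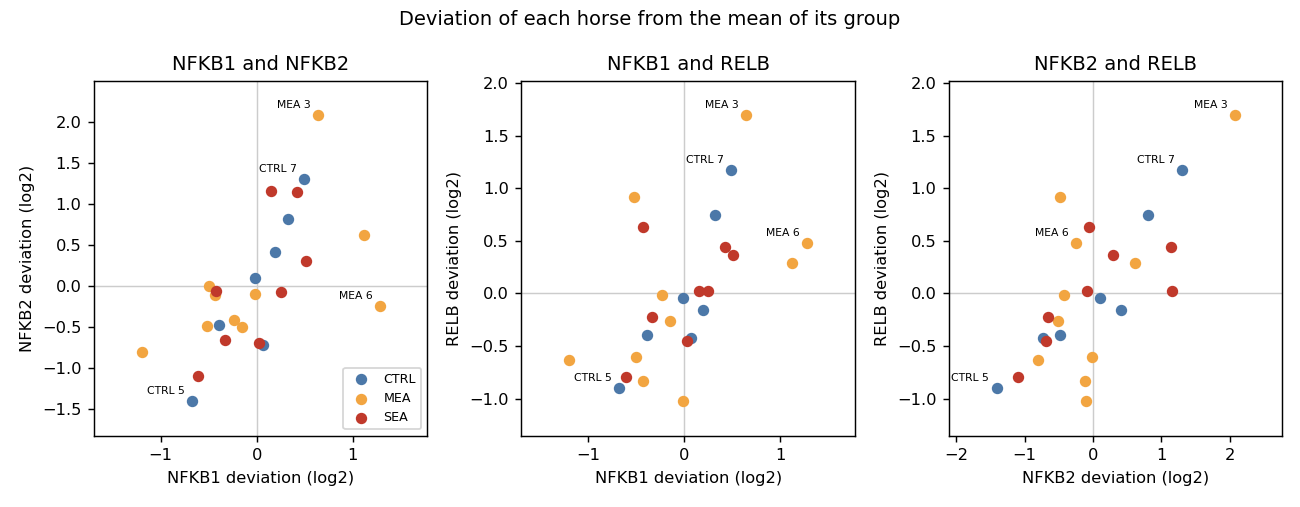
Deviation of each of the 25 horses from its group mean, in log2 units, for the 3 pairs of subunits, with colors for the CTRL, MEA and SEA groups and labels for horses named in the text. Points run from lower left to upper right in each panel, with r = 0.62, 0.56 and 0.72 from left to right, and MEA replicate 3 lies at the upper end of the last.

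Within the groups, 9 correlations were computed. The 7 CTRL horses gave r = 0.90 for NFKB1 with NFKB2 (exact permutation p = 0.00536, adjusted 0.0241), 0.86 for NFKB1 with RELB (exact permutation p = 0.0153, adjusted 0.0458) and 0.95 for NFKB2 with RELB (exact permutation p = 0.000992, adjusted 0.00893), with rho of 0.89, 0.82 and 0.96 and adjusted p of 0.0554, 0.102 and 0.025 for rho. Hence only NFKB2 with RELB passed 0.05 by both measures in CTRL. In the 8 SEA horses r was 0.70, 0.48 and 0.69 and in the 10 MEA horses 0.54, 0.50 and 0.63 for the same pairs, none past an adjusted permutation p of 0.05 (lowest 0.0886). The relation of NFKB2 with RELB in MEA rested on replicate 3, since r was 0.03 in the other 9 horses. Whether the correlations differ between groups was not tested. The share of spots well above background correlated with the deviations at r = -0.05, -0.15 and -0.18 for NFKB1, NFKB2 and RELB (rho 0.00, -0.19 and -0.17), with adjusted permutation p of 0.752 or more for r and 0.659 or more for rho.

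The closeness of the subunits was also set against all other tested transcripts, as a description over the same 25 horses. For NFKB1, NFKB2 ranked 42 and RELB 86 of 4929 by r, where the median r was -0.02. For NFKB2, RELB ranked 128 and NFKB1 332, and 12.5% of all transcripts had r above 0.5. For RELB, NFKB2 ranked 37 and NFKB1 270. Without MEA replicate 3 these ranks were 48 and 111 for NFKB1, 145 and 158 for NFKB2 and 78 and 183 for RELB, in the same order of partners. No subunit was the transcript nearest to another.

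The 5 symbol-bearing transcripts most like NFKB1 over the horses, after removal of group means, were TIMP1 (r = 0.73), an inhibitor of matrix metalloproteinases, C6orf145 (0.72), CXCL2 (0.72), PHF20L1 (0.71) and IRAK2 (0.70), a kinase of interleukin 1 receptor signaling. Those most like NFKB2 were STX11 (r = 0.92), a syntaxin of immune cell secretion, NFKBIA (0.87), the transcriptional regulator gene SPEN (0.86), CFLAR (0.85), an inhibitor of death receptor signaling, and PRDM1 (0.84), a transcriptional repressor of differentiated lymphocytes. STX11 and NFKBIA were ranked 1 and 2 of 4929 for NFKB2. Those most like RELB were ARAP1 (r = 0.84), IKBKB (0.79), which encodes the catalytic kinase of I kappa B, METRNL (0.79), the calcium channel gene TRPM2 (0.79) and the stress kinase gene SGK1 (0.78). Without MEA replicate 3 the 15 values of r lay between 0.69 and 0.89. All of these transcripts were called higher in SEA than in CTRL, with differences from 0.69 for IKBKB to 2.07 for PRDM1, as were 42% of the symbol-bearing transcripts from which they were taken. Over the 54 pathway transcripts the median r was 0.45 with NFKB1, 0.62 with NFKB2 and 0.53 with RELB, and 0.41, 0.53 and 0.39 without MEA replicate 3.

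The relation to cell makeup was examined within groups, because the neutrophil and macrophage percentages did not overlap between groups. For each subunit, neutrophil, macrophage, lymphocyte and epithelial percentages were set against its level in each of the 3 groups, which gave 36 correlations. None had a permutation p below 0.05 for r or for rho (the permutations were exact in CTRL and SEA). The lowest adjusted p was 0.957 for r and 1 for rho. With neutrophils in SEA, r was -0.38 for NFKB1, -0.59 for NFKB2 and -0.03 for RELB (rho -0.48, -0.50 and 0.14, exact permutation p for r of 0.375, 0.118 and 0.946). The 2 SEA horses with the highest NFKB2 ranked 1 and 4 of 8 by neutrophils, counted from the lowest. With neutrophils in MEA, r was 0.43, -0.01 and 0.42 (rho 0.17, 0.25 and 0.57, permutation p for r of 0.22, 0.981 and 0.224). In CTRL it was -0.24, -0.15 and 0.05 (rho 0.04, -0.04 and 0.04, exact permutation p for r of 0.627, 0.726 and 0.92).

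Leaving out the 2 horses farthest from the median percentage changed the sign of 12 of the 36 correlations, 6 in CTRL, 4 in MEA and 2 in SEA. The strongest of the 36 was RELB with the macrophage percentage in CTRL, at r = -0.72 (exact permutation p = 0.0583) and rho = -0.45, and it turned to 0.86. NFKB1 with the macrophage percentage in MEA, the next by p (r = -0.60, permutation p = 0.0609, rho = -0.32), turned to 0.18. Without the 2 farthest horses, the neutrophil correlations were -0.31, -0.38 and -0.47 in SEA, 0.61, -0.05 and 0.21 in MEA and 0.76, 0.73 and 0.94 in CTRL, for NFKB1, NFKB2 and RELB in that order. With 7 to 10 horses per group, the lack of a pass does not show that levels and cell shares are unrelated.

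**Figure D4:**
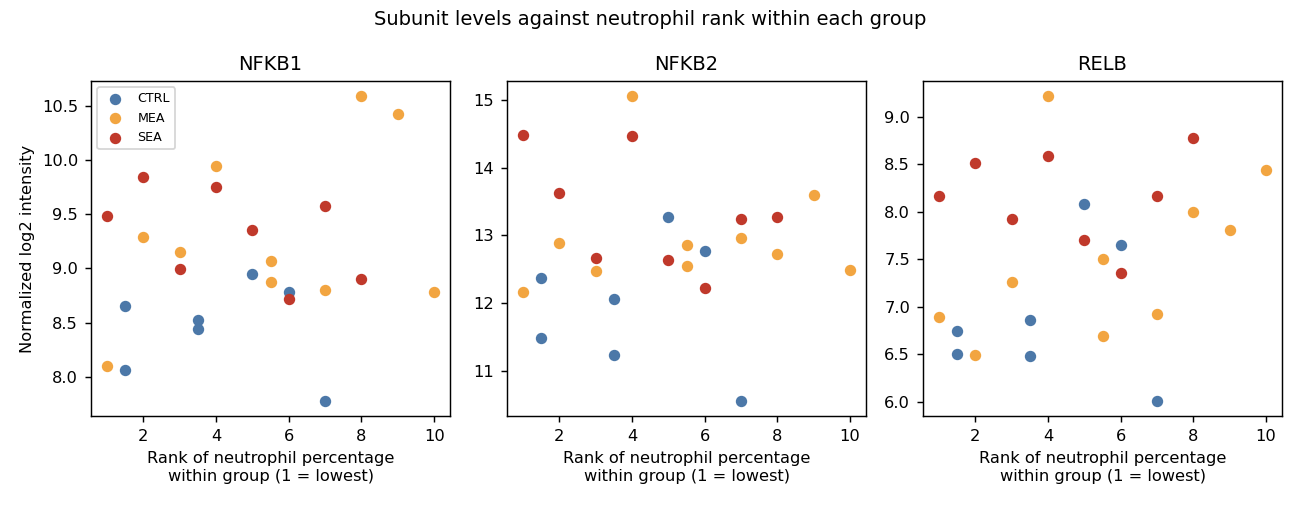
Normalized log2 intensity of NFKB1, NFKB2 and RELB on the y axes against the rank of the neutrophil percentage of each horse within its own group (1 is the lowest, ties share a rank) on the x axes, with colors for the groups. No panel shows a common slope over the 3 groups, and MEA replicate 3, the highest point for NFKB2 and RELB, has rank 4.

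The same question was put to the marker transcripts of the arrays, a choice made after the data had been seen. The means of the neutrophil, macrophage, epithelial and lymphocyte lists were correlated with the 3 subunits over the 25 horses after removal of group means, 12 relations in all. NFKB2 followed the neutrophil list at r = 0.64 (permutation p = 0.00196, adjusted 0.0146) and rho = 0.51 (permutation p = 0.0129, adjusted 0.0777), with r = 0.50 without the 2 farthest horses. RELB followed the lymphocyte list at r = 0.56 (permutation p = 0.00243, adjusted 0.0146) and rho = 0.63 (permutation p = 0.00161, adjusted 0.0193), with r = 0.63 without the 2 farthest. The other 10 missed an adjusted p of 0.05 for r, of which RELB with the neutrophil list was nearest (r = 0.50, adjusted permutation p = 0.0501). Without MEA replicate 3 none of the 12 passed: NFKB2 with the neutrophil list fell to r = 0.49 (adjusted permutation p = 0.227), and RELB with the lymphocyte list was 0.52 (adjusted permutation p = 0.0835). Over all 25 horses, macrophage and epithelial list means gave r between -0.10 and 0.25. Without MEA replicate 3, RELB with the macrophage list was 0.40 (adjusted permutation p = 0.287), and the others lay between -0.02 and 0.29. The neutrophil list itself did not follow the counted neutrophil percentage within the groups, with r of 0.31 in CTRL, -0.42 in MEA and -0.43 in SEA (rho 0.27, -0.40 and -0.52, adjusted permutation p for r of 0.398 or more).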

How the data were processed

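BAL cell RNA of 7 CTRL, 10 MEA and 8 SEA horses was hybridized to 25 one-color arrays with 2 spots for each of 7238 transcripts, 1 array per horse. The authors deposited spot intensity values from the scanner software, which removes background and spatial trends within an array, and a table of intensity values normalized over the 25 arrays on a linear scale. The submitters' processing notes name R 2.11.1. Slide and scan date came from the files.

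Processing was done in R 4.3.3 with limma 3.58.1. Log2 values of the deposited processed intensity were normalized by cyclic loess (span 0.7, 3 iterations), duplicate spots were averaged, and a transcript was dropped where 19 or more arrays read below 4.5. The scale of this limit is not stated in the methods, and log2 was assumed. These values correlated with the authors' table at r = 0.9995. Every pair of groups was compared with lmFit and eBayes on the arrays of those groups alone, with Benjamini-Hochberg adjustment over the 4930 tested transcripts. The study used a nonparametric test in SAM, which was not repeated here, and a rank sum test stands among the alternatives. Correlations were tested by permuting horses, within groups where group means were removed, exactly below 10 horses and otherwise with 100000 resamples. All p-values are two-sided. The steps were tested on simulated data. No 2 arrays held identical values.

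Symbols came from the study's lists of changed transcripts, which name 1865 transcripts, and cell percentages from its cytology table. That table gives 1 count per horse and no error. Columns of fold changes in those lists were not used. The 3 subunits, the gene lists and the alternatives were chosen with earlier results of these data known. Named were the 3 subunits, the 3 transcripts with the lowest adjusted p of each pathway list and the 2 with the largest change of each marker list in SEA against CTRL, and the 5 symbol-bearing transcripts most correlated with each subunit. Alternatives were quantile normalization, scaling to the 75th percentile, normexp (offset 50), the authors' normalized values, no filter and a filter on spots above background, trend and robust settings in limma, array weights, 1 fit of all arrays, covariates (sex, or the share of spots well above background), slide, scan date or replicate number as a block, an adjusted p below 0.05, and each horse left out. Neutrophil percentage was not used as a covariate, because the groups did not overlap. Lymphocyte percentages did not overlap between MEA and CTRL either, so that covariate cannot be separated from diagnosis in this comparison. Replicate numbers name different horses in each group. Chosen after the data had been seen were the epithelial and lymphocyte percentages as covariates and the mean of both probes of the NFKB1 sequence.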

Additional observations from a re-analysis of the deposited data

Results flagged for a closer look

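Of 126 sets of values (a named transcript in 1 group), 19 held a horse farther from the rest of its group than Dixon's test allows at 95%, and chance flags about 1 in 20 groups. MEA replicate 3 accounted for 13 of the 19, of which 7 (STX11, SPEN, CFLAR, PRDM1, IKBKB, TRPM2 and SGK1) were named for their correlation with NFKB2 or RELB over horses that include this one, so that the chance rate does not apply to them. It was high for NFKB2 at 15.05, where the next MEA horse read 13.59 and the group median was 12.79. It was also high for 12 other named transcripts: STX11 at 12.31, SPEN at 8.23, CFLAR at 9.38, PRDM1 at 12.31, MAP3K8 at 9.31, TANK at 11.63, NOD2 at 8.14, IKBKB at 9.27, TRPM2 at 11.03, SGK1 at 13.85, the macrophage marker EMR1 at 12.53 and the neutrophil marker CSF3R at 13.87. Neither NFKB1 nor RELB of this horse stood apart by the same test.

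The other 6 were single values of other horses. SEA replicate 1 was low for LTF at 4.1 and TIMP1 at 12.3, and SEA replicate 4, the lowest SEA horse for each subunit, was low for RIPK2 at 7.93. CTRL replicate 7, the highest control for each subunit, was high for C6orf145 at 6.83. MEA replicate 8 was low for BCL2L1 at 2.26, and MEA replicate 7 was high for TAX1BP1 at 12.04.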

How the results depend on the processing

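All 3 subunits were called in SEA against CTRL under each of 34 alternatives. NFKB1 lay between 0.68 and 0.96 (highest adjusted p 0.0374), NFKB2 between 1.12 and 1.58 (0.0861) and RELB between 0.80 and 1.44 (0.033). In MEA against CTRL, NFKB1 passed the threshold with the rank sum test and in 1 fit of all arrays (0.85 in both) and with array weights (0.77), and NFKB2 with array weights (0.88). Leaving out single horses gave 0.71 to 0.98 for NFKB1, called without CTRL replicate 7 and without MEA replicate 4 or 7, and 0.78 to 1.23 for NFKB2, called without CTRL replicate 7. RELB between SEA and MEA ranged from 0.51 to 0.81 and was called without MEA replicate 3. NFKB1 between SEA and MEA had no fixed sign: it was -0.18 with slide and -0.23 with scan date as a block, -0.0043 with the replicate block, -0.0035 with epithelial and -0.0034 with lymphocyte percentage as a covariate, and -0.11 to 0.17 without single horses. The 3 correlations between subunits kept a permutation p below 0.05 in 32 of 32 alternatives each. The cause of these changes was not tested.

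Of the 36 correlations with cell percentages, 12 changed sign without the 2 farthest horses. In CTRL these included NFKB1 (0.76) and NFKB2 (0.73) with neutrophils and NFKB1 (0.87), NFKB2 (0.69) and RELB (0.86) with macrophages, and in MEA NFKB1 with macrophages (-0.60 to 0.18) and RELB with epithelial cells (0.35 to -0.30). With neutrophils, NFKB2 in MEA gave 0.085, 0.012, 0.037 and 0.0053 and RELB in SEA 0.018, 0.036, 0.026 and 0.051 under the 75th percentile, quantile normalization, normexp and the authors' values. In CTRL, NFKB2 gave 0.017 under the 75th percentile and RELB -0.12 under normexp.

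The replicate numbers did not pair horses: same-numbered horses correlated above 0.1 in 3 of 7, 4 of 7 and 3 of 8 pairs, and 1, 0 and 2 correlated best with their own number. With the replicate block no subunit call changed, while transcripts called fell from 480 to 136 in MEA against CTRL and from 101 to 0 in SEA against MEA. This block kept only horses whose number occurred in both groups, which left 7 pairs in MEA against CTRL and 8 in SEA against MEA. The part of the block and that of the fewer horses in these falls cannot be told apart. Counts of called transcripts ranged from 874 (normexp) upward in SEA against CTRL (1601), from 0 (epithelial or lymphocyte percentage as a covariate) to 929 (array weights) in MEA against CTRL, and from 0 to 816 (array weights) in SEA against MEA. In MEA against CTRL the lymphocyte covariate cannot be separated from diagnosis, because those percentages did not overlap.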
